A study of Mus musculus with 4 samples.

Results

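Ackr4 and its surrounding chemokine axis were measured in the embryonic mouse organ of Corti after loss of Tbx2. The genes were 10 in number: the atypical receptors Ackr2, Ackr3 and Ackr4, the signalling receptors Cxcr4 and Ccr7, and the ligands Cxcl12, Cxcl14, Ccl19, Ccl21a and Ccl25. All probes that carry one of these names in the array files were taken, which gave 17 probes for 9 genes of the 29924 gene names on the array. No probe was named Ccl21a, and its only reading came from a probe that it shares with near-identical genes. The group was selected on measured values of these same arrays, namely the lower Ackr4 ratio between genotypes. The genotype ratios of these 10 genes are therefore a description. Whether a probe met the limit set for all genes is stated for orientation and is no test of the group, and only differences between the sexes and between the dyes were tested for it.

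The cochlea senses sound through the organ of Corti, a strip of hair cells and supporting cells. Each of 4 dual-colour arrays compared a pool of NMRI mouse embryos of the genotype Sox2(creERT2);Tbx2(fl/fl), named Sox2-Tbx2LOF, with a pool of controls of the genotype Tbx2(fl/n.d.). Tamoxifen (4 mg by mouth) was given to the pregnant dams of both groups at E16.5 (E, embryonic day), together with progesterone, and the basal part was dissected at E18.5. In Sox2-Tbx2LOF embryos it activates a recombinase inserted in the Sox2 gene, so that Tbx2 can be lost only in cells that express Sox2 at that time. Controls had no recombinase, and the labels leave their other Tbx2 allele undetermined. The crosses in the study's methods, with both parents homozygous for the floxed allele and the mother homozygous for R26mTmG, a fluorescent reporter of recombination, would give both genotypes the floxed alleles and the reporter. The insertion itself is thus a further difference between the groups. Several organs went into each pool after removal of the spiral ligament and the spiral ganglia. Arrays 1 and 2 held female pools and arrays 3 and 4 male pools, and the Sox2-Tbx2LOF pool carried the green dye Cy3 on arrays 1 and 3 and the red dye Cy5 on arrays 2 and 4.

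Chemokines are small secreted proteins that guide migrating cells along gradients through G protein-coupled receptors. Atypical chemokine receptors bind the same ligands without coupling to G proteins, take them up and degrade them, and so shape how much ligand reaches the signalling receptors. ACKR4 takes up CCL19, CCL21 and CCL25, ACKR3 takes up CXCL12, and ACKR2 takes up inflammatory CC chemokines. CCR7 is the signalling receptor of CCL19 and CCL21, and CXCR4 is that of CXCL12. TBX2 is a T-box transcription factor required for the inner hair cell fate.

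The arrays read each gene through probes of 60 bases. The last 30 bases of the probes on which the following values rest are shown here 5′ to 3′ with their place on the mouse build mm9. The 2 Ackr4 probes lie on the minus strand, 175 bases apart, and are called downstream and upstream after their order along the transcript. Capitals mark AATAAA, the usual polyadenylation signal, which 10.6% of all probes on the array hold in their last 30 bases.
Ackr4 downstream (chr9:104000628-104000688, minus strand): aaatctgacagcaactggtattctgtaata
Ackr4 upstream (chr9:104000864-104000923, minus strand): caaatactgttgttgcaatttataacaaag
Cxcl12 probe 1 (chr6:117131227-117131286, plus strand): tgctttcttattcttatttttaatatatga
Cxcl12 probe 2 (chr6:117125026-117125085, plus strand): tatttacctgaAATAAAatctactagttgt
Cxcl14 (chr13:56390078-56390137, minus strand): tatctgctatgtaaatgctgagacccctga
Ccl19 probe 1 (chr4:42250105-42250164, plus strand): catccgaagactgaagacgtcttctgccaa
The Ackr4 probes hold no such signal in these bases, whereas Cxcl12 probe 2 holds one. The array files do not state exons or untranslated regions. They place the Ackr4 probes from base 2181 and from base 1653 of differently numbered transcripts. The Cxcl12 probes are likewise assigned to different Cxcl12 transcripts, from base 5510 for probe 1 and from base 1816 for probe 2, so that they may read different transcript ends. Cxcl14 and Ccl19 are shown for the ligands described next to Ackr4.

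A level is the normalized log2 intensity of a pool, and a ratio is the log2 of Sox2-Tbx2LOF over control on the same array, so that a negative ratio is a lower level in Sox2-Tbx2LOF. A probe was called changed when its adjusted p in limma was under 0.05 and its change at least 1.5-fold. Levels of different probes are not comparable, since probes differ in how strongly they bind. All 4 arrays lay on 1 slide and were scanned together. The array medians lay between 315.4 and 412.3 intensity units in the 2 channels, no spot was saturated, and the number of arrays limits the precision. The targeted gene Tbx2 read -0.15 ± 0.14 on average (SD, n = 4) and below 0 on 4 of 4 arrays, and it did not pass the test (adjusted p = 0.313 in limma). Whether its probe lies in the deleted part is not given in the sources used here. The inner hair cell markers Fgf8, Slc17a8 and Otof were lower on every array (adjusted p from 2.13e-06 to 0.00984 in limma). Of these 3, Fgf8 and Slc17a8 were called and Otof, at -0.40, missed the fold limit. Across all genes, 70 of 28079 tested probes were called changed.

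Ackr4 had the lowest ratio of the 9 genes. At its downstream probe the control level was 10.84 and 10.91 in the female pools and 11.26 and 11.03 in the male pools. The Sox2-Tbx2LOF level was 10.24 and 10.62 in the female pools and 10.27 and 10.42 in the male pools. Every control pool lay above every Sox2-Tbx2LOF pool, a separation seen at 2.53% of all tested probes. Nothing is read from this share, since the rule chose Ackr4 on these values. Before normalization the same probe read 1879, 1664, 2672 and 1881 intensity units in control and 1162, 1603, 1337 and 1268 in Sox2-Tbx2LOF on arrays 1 to 4, against a local background of 30 to 81.5 units.

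The downstream ratio was -0.61, -0.29, -0.99 and -0.61 on arrays 1 to 4, with a mean of -0.62 ± 0.29 (SD, n = 4). This is a level 1.54-fold lower in Sox2-Tbx2LOF than in control, just past the 1.5-fold limit. Of the 15 tested probes of the group 1 met the limit for a call, this one, beside 0.249% of all tested probes in either direction and 0.128% called lower. Because this contrast chose the gene, the call is no evidence about it and nothing is read from the count. Leaving out array 3 or array 4 moved the ratio to -0.53 or -0.54, short of the fold limit, so that no probe of the group was called. The call was also lost without the dye term, at an unchanged ratio of -0.62, and with the series matrix values, at -0.65.

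The upstream Ackr4 probe spread more widely between arrays. Its control level was 7.90 and 8.39 in the female pools and 8.69 and 8.72 in the male pools, and its Sox2-Tbx2LOF level was 7.93 and 8.07 in the female and 7.86 and 8.05 in the male pools. The Sox2-Tbx2LOF pools lay within 0.21 of each other while the control pools spread over 0.81, and the groups overlapped because the control pool of array 1 was as low as the Sox2-Tbx2LOF pools. The ratio was 0.02, -0.31, -0.83 and -0.67, with a mean of -0.45 ± 0.38 (SD, n = 4), and the probe was not called. Both Ackr4 probes were thus lower on arrays 2, 3 and 4, while on array 1 only the downstream probe was lower. The upstream ratio was -0.66 without array 1, -0.54 without array 2, -0.23 without array 3 and -0.36 without array 4, so that it depended on which arrays entered. It met the limit for a call in the first of these cases alone, where the array that goes against the direction is left out. Between spots of the same array the SD of the log2 ratio was 0.035 to 0.16 at the upstream probe and 0.037 to 0.12 at the downstream probe. The 0.63 by which the probes differed on array 1 exceeds this spot spread.

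**Figure D1:**
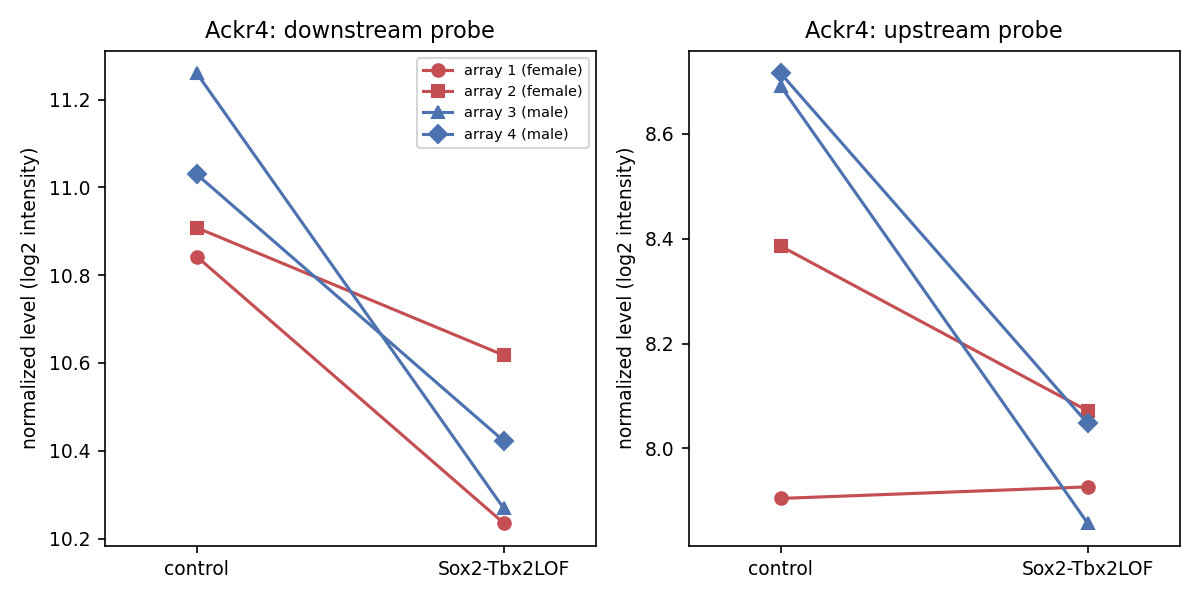
Normalized level (log2 intensity) of Ackr4 at its downstream probe and its upstream probe, with 1 line per array joining the control and the Sox2-Tbx2LOF pool, female arrays in red and male arrays in blue. The lines run downwards on all arrays at the downstream probe, and at the upstream probe array 1 is level at 7.90 and 7.93.

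Ackr2 and Ackr3, the other atypical receptors, had mean ratios close to 0. The Ackr3 ratio was -0.14, 0.16, 0.03 and 0.06, with a mean of 0.03 ± 0.13 (SD, n = 4), and its levels ran from 13.32 to 13.51 in control and from 13.25 to 13.57 in Sox2-Tbx2LOF. The pools of both genotypes overlapped over almost this whole range. Ackr2 had a mean of -0.01 ± 0.24 (SD, n = 4) at its tested probe, where array 2 read -0.37 and the other arrays 0.05 to 0.16. A second Ackr2 probe was not well above background on any array.

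The signalling receptors also lay close to 0. Cxcr4, the receptor of CXCL12, had ratios of -0.06, -0.06, -0.10 and 0.06, with a mean of -0.04 ± 0.07 (SD, n = 4), the smallest spread between arrays of the tested probes. Ccr7, which responds to CCL19 and CCL21, had a mean of -0.03 ± 0.12 (SD, n = 4). Its levels lay between 6.60 and 6.87 and its Sox2-Tbx2LOF channel was well above background on 3 of 4 arrays, so that changes in Ccr7 could be measured only poorly.

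Among the ligands, Cxcl14 had the largest ratio. Cxcl14 is a chemokine made by many epithelia. Its control level was 10.52, 10.79, 10.98 and 11.02 and its Sox2-Tbx2LOF level was 10.84, 11.12, 11.47 and 11.05 on arrays 1 to 4. It was thus higher in Sox2-Tbx2LOF on 4 of 4 arrays, although the groups overlapped, with the lowest Sox2-Tbx2LOF pool at 10.84 and the highest control pool at 11.02. The ratios were 0.33, 0.33, 0.49 and 0.03, with a mean of 0.29 ± 0.19 (SD, n = 4), or 1.23-fold, and the probe was not called.

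Cxcl12, the ligand of CXCR4 and ACKR3, was read by 2 probes. Probe 1 had ratios of 0.05, 0.01, -0.01 and 0.24 (mean 0.07 ± 0.11, SD, n = 4). Probe 2 had ratios of 0.28, -0.13, -0.23 and 0.13 (mean 0.01 ± 0.23, SD, n = 4). The 2 probes disagreed in sign on array 2, and at neither did the groups separate.

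The ligands that ACKR4 takes up had mean ratios on either side of 0. The 3 Ccl19 probes had mean ratios of 0.06 ± 0.24, 0.02 ± 0.22 and 0.03 ± 0.19 (SD, n = 4 each). Probe 1 read -0.04 and -0.20 on the female and 0.16 and 0.34 on the male arrays, and probe 3 read -0.01 and -0.22 on the female and 0.16 and 0.19 on the male arrays. Probe 2 was negative on arrays 1 to 3 and 0.35 on array 4. The array files place all 3 on the plus strand of chromosome 4, in a region known for near-identical gene copies. RefSeq (GRCm38.p6) instead places Ccl19 itself on the minus strand. It holds a stretch of probe 3 at the start of both Ccl19 and Gm12407. These values may therefore mix Ccl19 with its copies.

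Ccl25 was read by 3 tested probes with mean ratios of -0.07 ± 0.18, 0.05 ± 0.19 and 0.03 ± 0.28 (SD, n = 4 each). The last of these was dim, at 6.82 to 7.19 in control and 6.82 to 7.09 in Sox2-Tbx2LOF. RefSeq holds a stretch of it at the start of LOC108167518, so that it may not read Ccl25 alone. Another Ccl25 probe was not well above background on any array. The probe that lists the Ccl21a transcript carries the name Gm1987 and lists 4 transcripts of the Ccl21 family, which it cannot tell apart. It was looked up after the group was chosen. Its ratios were 0.20, 0.35, 0.40 and 0.07, with a mean of 0.25 ± 0.15 (SD, n = 4), higher on 4 of 4 arrays, and it was not called. Its levels were 14.98 to 15.19 in control and 15.18 to 15.57 in Sox2-Tbx2LOF, which overlapped at the edge.

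**Figure D2:**
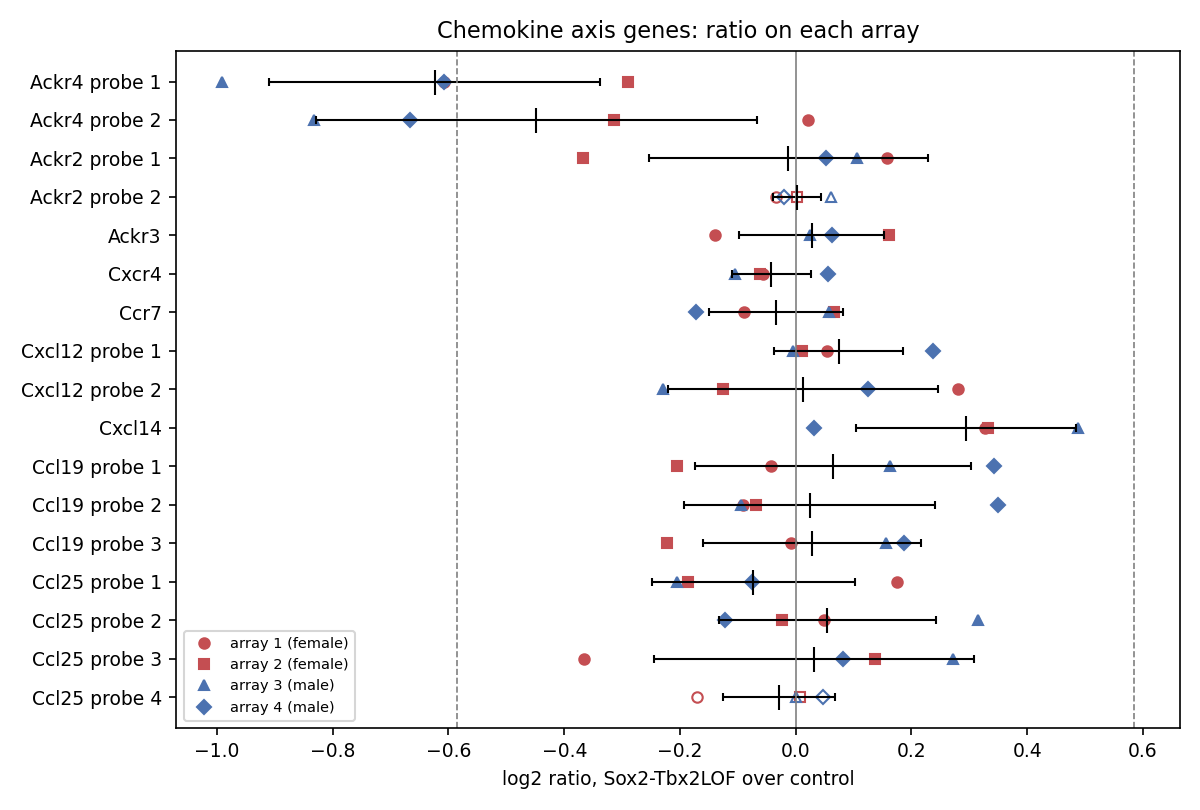
Log2 ratio of Sox2-Tbx2LOF over control for the 17 probes, with 1 symbol per array (female red, male blue, open symbols for the 2 probes not tested), the mean as a black tick and the SD as a bar. Dashed lines mark a 1.5-fold change, and only the mean of Ackr4 probe 1, the downstream probe, lies beyond it, at -0.62.

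The RNA came from whole tissue, so that fewer cells that express a gene cannot be told apart from less RNA per cell. Beside the inner hair cell markers, other cell types that could carry chemokine genes were read through marker lists. Of 5 endothelial markers 5 were tested, with ratios from 0.00 to 0.12 and none called, and their summed level was 14.17 to 14.29 in control and 14.22 to 14.30 in Sox2-Tbx2LOF. Of 4 lymphatic endothelial markers 2 were tested, Lyve1 at -0.10 and Pdpn at -0.08, and their summed level was 14.16 to 14.43 in control and 14.00 to 14.30 in Sox2-Tbx2LOF. Flt4 did not pass the filter and Ccl21a had no probe of its own. The probe that Ccl21a shares with its family went the other way, with a mean ratio of 0.25. Of 6 leukocyte markers 6 were tested, with ratios from -0.04 to 0.06, and their summed level was 13.49 to 13.73 in control and 13.54 to 13.73 in Sox2-Tbx2LOF. The part of these cells in the Ackr4 ratio was not tested.

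Male and female pools could be compared without use of the genotype contrast. No probe of the group was called between the sexes (limma with a sex term, 0 of 15, against 0.0534% of all tested probes), and 1 of 15 had an unadjusted p under 0.05, beside 7.93% of all tested probes. This was Cxcl14, higher in male than in female pools by 0.31 ± 0.11 (SE, adjusted p = 0.596 in limma). Ackr4 was higher in male pools by 0.09 ± 0.11 at the downstream and by 0.26 ± 0.17 at the upstream probe (SE, adjusted p = 0.817 and 0.687 in limma). The sexes lay on different arrays, 2 for each.

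The genotype ratio of Ackr4 read more negative on the male arrays at both probes. At the downstream probe the mean ratio was -0.45 in females and -0.80 in males, a difference of -0.35 ± 0.11 (SE), and at the upstream probe it was -0.15 and -0.75, a difference of -0.60 ± 0.14 (SE). The Ccl19 ratio differed the other way, by 0.38 ± 0.12 (SE) at probe 1 and by 0.29 ± 0.11 (SE) at probe 3. These 4 of the 15 tested probes had an unadjusted p under 0.05 in limma, beside 2.01% of all tested probes. They read only Ackr4 and Ccl19, on the same pools, so that they are not 4 separate results. None passed after adjustment over all tested probes (adjusted p = 0.9999 in limma for each of the 4 probes), and of all tested probes 0% were called for this difference. The design has 2 arrays a sex and leaves 1 residual degree of freedom per probe. On simulated data with 200 changed probes this fit made 20 false calls with the spread drawn from limma's fitted prior. It made 70 with each probe's own spread, and both counts are more than its threshold allows.

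**Figure D3:**
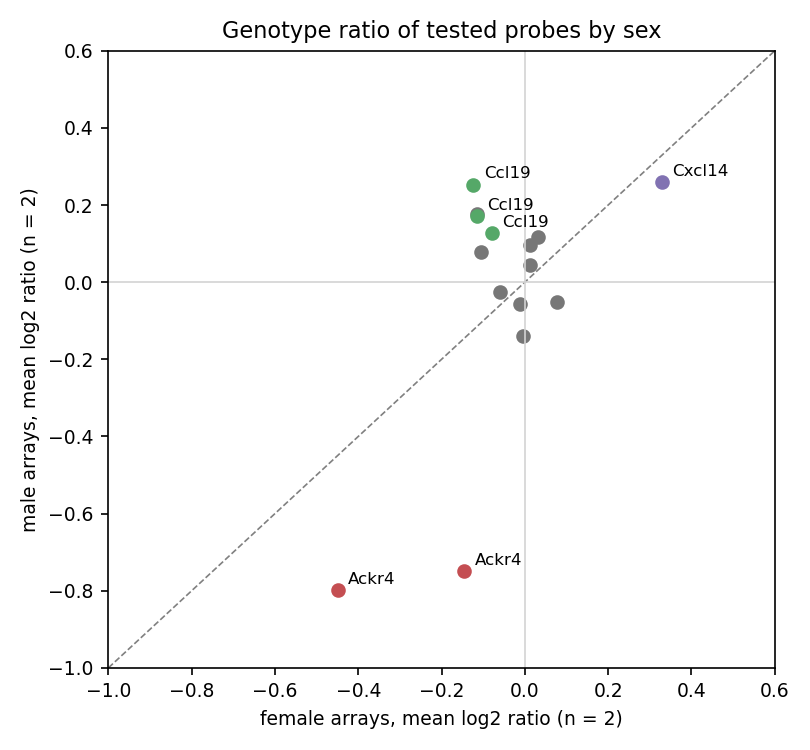
Mean log2 ratio of Sox2-Tbx2LOF over control on the 2 female arrays (horizontal axis) against the 2 male arrays (vertical axis) for the 15 tested probes, with Ackr4 in red, Ccl19 in green, Cxcl14 in purple, the other genes in grey and equal ratios on the dashed line. Ackr4 lies below the line at -0.45 and -0.80 and at -0.15 and -0.75, and the Ccl19 probes lie above it.

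No probe of the group had an adjusted p under 0.05 for the dye term in limma, but the share over all tested probes was not counted. Over all tested probes, ratios correlated at 0.435 to 0.461 between arrays of the same dye orientation. Between arrays of opposite orientation they correlated at -0.28 to -0.0883. The dye term was 0.18 ± 0.08 (SE) at the downstream Ackr4 probe and -0.04 ± 0.12 (SE) at the upstream probe, with adjusted p = 0.209 and 0.865 in limma. Each dye orientation was on 2 arrays, so this term cancels in the mean ratio.

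Levels over the 8 pools, after removal of each dye's mean, were compared with those of the downstream Ackr4 probe across 18364 named genes. The upstream Ackr4 probe had Pearson's r = 0.89 with it. The genes most alike were Npy2r, a neuropeptide Y receptor, with r = 0.99, Tafa2, a secreted protein related to chemokines, with r = 0.98, and Tmem255a, Rab19 and S100a6, each with r = 0.98. Their mean ratios were -0.23 for Npy2r, -0.52 for Tafa2, -0.24 for Tmem255a, -0.45 for Rab19 and -0.21 for S100a6, all lower on 4 of 4 arrays except S100a6, lower on 3. None of these 5 genes was called changed, although Tafa2 and Rab19 had adjusted p = 0.0042 and 0.00802 in limma and missed only the fold limit. Tbx2 itself had r = 0.68. The 8 pools share slide, genotype groups and arrays in pairs, so that any gene that differs between the genotypes gains a high r here, and the values are a description. Among the other genes of the axis, each read by its brightest probe, r ran from -0.55 for Cxcl12 to 0.47 for Ccl25. Other tested probes of the same genes differed, with r = -0.06 for Cxcl12 and r = -0.20 and -0.32 for Ccl25.

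The rest of the chemokine system gave 46 tested genes of the 70 listed, each read by its brightest probe. None was called changed, beside 0.249% of all tested probes. None had an adjusted p under 0.05 in limma, beside 277 of 28079 tested probes, and SAM called 0, beside 59 over all tested probes. At such shares counts of 0 among 46 genes say little. An unadjusted p under 0.05 was found for 8 of the 46, beside 7.12% of all tested probes. Of these 46 genes 21 were higher and 25 lower in Sox2-Tbx2LOF, with a median ratio of -0.02 beside 0.00 over all tested probes. Their ratios ran from -0.40 to 0.28. They are not set against the Ackr4 ratio, since the group was chosen on it.

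Among the CC ligands 12 of 20 were tested, 7 higher and 5 lower. Ccl7, a monocyte attractant, had a mean ratio of 0.18 ± 0.27, Ccl28, an epithelial chemokine, 0.17 ± 0.31, and Ccl11, an eosinophil attractant, 0.15 ± 0.09 (SD, n = 4 each). Ccl11 was higher on 4 of 4 arrays, with adjusted p = 0.516 in limma. Among the other ligands 8 of 15 were tested, 3 higher and 5 lower. Cxcl5, a neutrophil attractant, had 0.57, 0.32, 0.11 and 0.13 on arrays 1 to 4, with a mean of 0.28 ± 0.21 (SD, n = 4; adjusted p = 0.202 in limma). The platelet chemokines Ppbp and Pf4 had means of -0.26 ± 0.21 and -0.11 ± 0.16 (SD, n = 4; adjusted p = 0.316 and 0.748 in limma).

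Among the receptors 10 of 19 were tested, 4 higher and 6 lower, within -0.08 and 0.11. Gpr182, an endothelial receptor that also takes up chemokines, had 0.11 ± 0.37, Ccr10, the receptor of CCL27 and CCL28, had -0.08 ± 0.12, and Cxcr3 had -0.06 ± 0.05 (SD, n = 4 each). Ackr1, the atypical receptor of red cells and venules, had 0.01 ± 0.03 (SD, n = 4) and was picked for its name after its value was known. Ccr9, the signalling receptor of CCL25, was not well above background on enough arrays to be tested.

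Among 16 partners and signalling genes 16 were tested, 7 higher and 9 lower. Cd74, a receptor of the cytokine MIF on antigen-presenting cells, had 0.11, -0.51, -0.50 and -0.69, with a mean of -0.40 ± 0.35 (SD, n = 4; adjusted p = 0.107 in limma). Mif itself had -0.16 ± 0.05 and was lower on 4 of 4 arrays (SD, n = 4; adjusted p = 0.279 in limma). Adm, the peptide adrenomedullin that ACKR3 also takes up, had -0.14 ± 0.21 (SD, n = 4; adjusted p = 0.771 in limma). The arrestins and receptor kinases that carry chemokine receptors into the cell, Arrb1, Arrb2, Grk2, Grk3, Grk5 and Grk6, lay between -0.05 and 0.14.

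**Figure D4:**
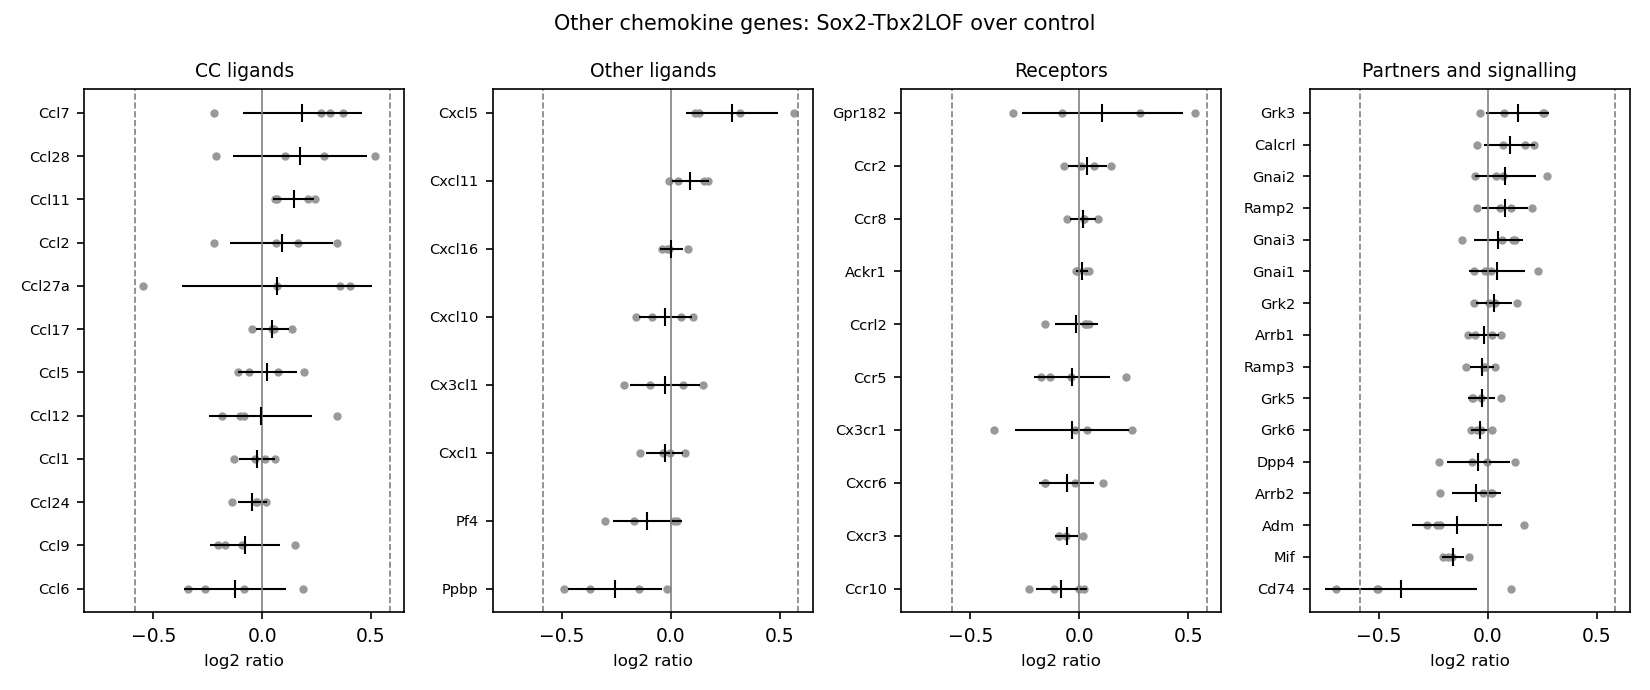
Log2 ratio of Sox2-Tbx2LOF over control for the 46 tested genes in 4 lists, with 1 grey point per array, the mean as a black tick and the SD as a bar. Dashed lines mark a 1.5-fold change, and all means lie within them, between -0.40 for Cd74 and 0.28 for Cxcl5.

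Promoter windows of 300 bases around the RefSeq start (GRCm38.p6) were searched for the T-box half-site GGTGTGA on both strands. Windows of 9 of the 10 genes were at hand, Ccr7 excepted, and none held these letters, which 3.98% of all windows in the table hold. This says only that these letters are not in the windows.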

How the data were processed

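RNA of 4 Sox2-Tbx2LOF and 4 control pools was hybridised to 4 dual-colour arrays. The deposited intensity values are spot means and local background medians read by the authors from the scans (Agilent Feature Extraction 10.7.3.1), without normalization. The log10 ratios of red over green in the same files were corrected for background and dye by the authors' scanner software. The series matrix holds a score deposited by the authors, a signed fold change whose processing is not given in the sources used here. It correlated with the scanner ratios at r = 0.918 to 0.941, as Sox2-Tbx2LOF over control on every array, and the median of each column was 0 on the log2 scale.

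Background was corrected by normexp (offset 50) and ratios by loess within arrays in limma 3.58.1 (R 4.3.3). Control spots and outlier spots (3.23% to 3.56%) were left out and the 4 spots of a probe averaged. A probe was tested when well above background in more than 0.5 of its spots on at least 3 of 4 arrays in either genotype, which left 28079 of 39429 probes. Ratios were fitted with a dye term, with Benjamini-Hochberg adjustment over all tested probes. These ratios show unequal change, since loess assumes that most genes do not change, and for dim probes the offset shrinks them. Sexes were compared on channel levels (loess, then quantile normalization of brightness) with an intraspot correlation of 0.27. Ratios of arrays with the same dye orientation correlated at 0.435 to 0.461, and of opposite orientation at -0.28 to -0.0883. The methods of the study name SAM, run here as an alternative because a ratio within an array cancels effects of the spot. Fits were tested on simulated data, with the spread drawn from limma's fitted prior and with each probe's own spread.

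The genes and lists were chosen with earlier results of these data known. Named are all probes of the 10 genes and the 5 genes most correlated with the brightest Ackr4 probe. Of other lists, genes with adjusted p under 0.05 or among the 3 largest ratios of their list are named. Ackr1, Ccr9, the arrestins, the receptor kinases, the shared Ccl21 probe, Tbx2 and cell type markers were named outside this rule. Gene symbols came from RefSeq (GRCm38.p6) for 28328 probes and otherwise from the array files. Glia, neuron, blood, mesenchyme, melanocyte, hair cell and supporting cell markers were also read, and none was called changed, beside 0.249% of all tested probes. Of 6 mesenchyme markers 5 were higher and 1 lower in Sox2-Tbx2LOF, with ratios from -0.05 to 0.23. Their summed level was 17.97 to 18.24 in control and 18.20 to 18.31 in Sox2-Tbx2LOF, and its part in the ratios was not tested.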

Additional observations from a re-analysis of the deposited data

Results flagged for a closer look

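In 4 of 51 groups of 4 values that were examined, 1 array lay far from the other 3, by Dixon's test of the gap over the range. Chance flags about 1 in 20 such groups. The log2 ratio of Ccl19 probe 2 was 0.35 on array 4 and -0.09 to -0.07 on the other arrays. The Sox2-Tbx2LOF level of Ccl19 probe 3 was 9.65 on array 3 and 9.78 to 9.80 on the others. The control level of Cxcr4 was 8.77 on array 4 and at least 8.97 on the others. The Sox2-Tbx2LOF level of the Ackr2 probe not well above background was 6.22 on array 4 beside 6.25 on the others. None of the Ackr4 values lay that far out.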

How the results depend on the processing

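The Ackr4 ratio at the downstream probe stayed below 0 under all 17 alternatives, a description only, since the rule chose Ackr4 on these values. Alternatives that change only the filter, the test or the fit terms return the same -0.62 by construction. As the ratio was below 0 on all 4 arrays, leaving out 1 could not turn it positive. With 1 array left out at a time it ran from -0.72 to -0.53, and 0 to 2 probes of the group were called. It lost its call without array 3 or array 4, where it dropped under the fold limit, and in 2 other alternatives. These were the series matrix values (ratio -0.65) and the fit without a dye term (ratio -0.62), each with 0 probes of the group called. In both the ratio was past the fold limit, so that only the adjusted p fell short, and the cause of that was not tested. SAM and the unpaired limma fit on 8 pools kept 1 call. No other chemokine gene was called under any alternative, and no probe of the group was called between the sexes or for sex by genotype under the alternatives run. Without 1 array the sex fit used the intraspot correlation of all 4. The ratios of the other 13 tested probes moved by less than 1 SD under every alternative, but most alternatives could not have given another outcome. Changes of filter, test or fit terms leave these ratios as they are by construction. Leaving out 1 array in the fit with a dye term cannot move a ratio by 1 SD of the 4 arrays. Over all tested probes 70 were called, 124 with the scanner's log ratio, 2 with the series matrix values, 277 without a minimum fold and 106 without array 1. The upstream Ackr4 ratio ran from -0.66 without array 1, where it was called as well, to -0.23 without array 3. The ratio within an array already pairs its 2 pools, and the unpaired limma fit and SAM are the fits without that pairing. Brightness over background limits what can be said of Ccr7, of the dim tested Ccl25 probe, and of the Ackr2 and Ccl25 probes not tested.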
